A study of Mus musculus with 16 samples.

Results

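The regions described here are the ATRX-dependent heterochromatin nanodomains (HNDs) that lie over exons, the parts of genes kept in mature RNA. An HND of the deposited list on chromosomes 1 to 19 of mm9 was taken as an exon HND when it shared at least 1 base with an exon record of the GENCODE M1 annotation and no base with the window of 1 kb on either side of any gene start. This rule found 382 exon HNDs among the 11899 HNDs on these chromosomes. H3K9me3 was mapped by ChIP-seq in mouse embryonic stem cells (ESCs) of the wild-type (WT) line wt26 and in *Atrx* knockout (KO) cells derived as the clones KO1-40 and KO1-45. Libraries of H3K9me3, histone H3, IgG and input were made with 2 from WT and 2 from KO cells for each, 16 in all, and the clone behind each KO library is not labelled. An ATRX-dependent HND is a region with an H3K9me3 peak in WT that was absent in KO. The result is 1 pooled list of positions without heights, scores or replicates, so neither the depth behind a region nor an error between replicates can be given from it. Intervals given for shares are 95% Wilson intervals and cover counting error only.

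ATRX is a chromatin remodelling ATPase of the SNF2 family that works with the histone chaperone DAXX to deposit histone H3.3 at telomeres, pericentromeric repeats and silenced retroelements. Trimethylation of histone H3 at lysine 9 is read by heterochromatin protein HP1 and marks repressed chromatin, yet it is also known inside genes, in particular over the last exons of zinc finger genes that encode arrays of DNA-binding fingers. Most mouse genes are split into many short internal exons and one long last exon, which usually carries the end of the coding sequence and the 3′ untranslated region.

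To show what such regions look like at the level of DNA, stretches of 300 bases from mm9 are given in the direction of the gene, 5′ to 3′, with bases of annotated exons in capitals and all other bases in lower case. The internal exons with the most coding bases in an HND belong to *Fat2*, an atypical cadherin of cell contacts, and *Cenpj*, a protein of centriole assembly. The *Fat2* stretch is chr11:55094390-55094689 on the minus strand, inside an HND of 2453 bp, and the *Cenpj* stretch is chr14:57170610-57170909 on the minus strand, inside an HND of 2039 bp. In both, the coding exon ends in the middle of the stretch and the HND runs on into the intron, which begins with gt.
Fat2: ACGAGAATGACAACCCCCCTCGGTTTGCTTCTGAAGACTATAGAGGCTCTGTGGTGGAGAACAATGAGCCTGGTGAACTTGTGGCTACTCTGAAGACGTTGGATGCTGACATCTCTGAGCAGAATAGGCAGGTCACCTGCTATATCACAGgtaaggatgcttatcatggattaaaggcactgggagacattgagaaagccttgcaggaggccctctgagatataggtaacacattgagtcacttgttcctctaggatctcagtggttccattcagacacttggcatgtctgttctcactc
Cenpj: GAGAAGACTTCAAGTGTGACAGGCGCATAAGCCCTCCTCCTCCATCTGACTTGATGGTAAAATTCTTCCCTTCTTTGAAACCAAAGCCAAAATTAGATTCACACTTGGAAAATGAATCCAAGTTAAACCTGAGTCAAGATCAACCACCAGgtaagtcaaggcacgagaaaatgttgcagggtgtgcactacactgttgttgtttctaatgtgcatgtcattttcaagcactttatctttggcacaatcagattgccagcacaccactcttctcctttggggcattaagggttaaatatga

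The last exons shown belong to *L1td1*, an RNA-binding protein that arose from a LINE-1 element and is made in ESCs, and to *Lrrc8d*. *Lrrc8d* is a subunit of volume-regulated anion channels. Their HNDs held 1671 and 1486 coding bases, and the stretches hold no untranslated base. They were chosen within the limits for printed stretches given with the processing below, and are not a ranking of all last exons. The *L1td1* stretch, chr4:98402987-98403286 on the plus strand, crosses from the intron into the last exon of a transcript of 2 exons, and lies in an HND of 4777 bp. The *Lrrc8d* stretch, chr5:106241950-106242249 on the plus strand, is the centre of an HND of 1486 bp that is coding throughout.
L1td1: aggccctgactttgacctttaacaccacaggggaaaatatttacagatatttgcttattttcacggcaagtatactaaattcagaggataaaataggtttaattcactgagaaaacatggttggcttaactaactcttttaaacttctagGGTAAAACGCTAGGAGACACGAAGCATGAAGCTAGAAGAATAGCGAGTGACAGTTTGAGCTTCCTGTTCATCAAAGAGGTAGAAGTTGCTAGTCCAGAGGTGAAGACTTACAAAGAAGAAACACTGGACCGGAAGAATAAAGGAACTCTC
Lrrc8d: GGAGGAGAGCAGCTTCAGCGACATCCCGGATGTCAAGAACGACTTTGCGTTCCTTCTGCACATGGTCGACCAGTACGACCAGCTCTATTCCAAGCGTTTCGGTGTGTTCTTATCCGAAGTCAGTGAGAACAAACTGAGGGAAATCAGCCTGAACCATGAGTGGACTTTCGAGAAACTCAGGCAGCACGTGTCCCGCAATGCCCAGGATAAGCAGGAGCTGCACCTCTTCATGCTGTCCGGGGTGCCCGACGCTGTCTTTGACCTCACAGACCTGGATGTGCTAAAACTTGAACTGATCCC

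Among pseudogenes, which resemble genes but make no known protein, *Gm12591* (chr11:121829375-121829674, minus strand) and *Gm13081* (chr4:143338978-143339277, plus strand) held the most exonic bases. The *Gm12591* stretch crosses the end of its last exon, and the *Gm13081* stretch is wholly exonic, with 93.0% of its 50-base words found once in mm9 against 100% for the other stretches shown.
Gm12591: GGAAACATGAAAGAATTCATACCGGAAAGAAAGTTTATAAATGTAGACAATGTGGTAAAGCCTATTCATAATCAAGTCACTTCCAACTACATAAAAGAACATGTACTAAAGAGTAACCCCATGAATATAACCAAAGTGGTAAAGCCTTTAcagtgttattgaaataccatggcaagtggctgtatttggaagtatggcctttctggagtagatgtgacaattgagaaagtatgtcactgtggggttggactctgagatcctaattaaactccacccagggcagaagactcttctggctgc
Gm13081: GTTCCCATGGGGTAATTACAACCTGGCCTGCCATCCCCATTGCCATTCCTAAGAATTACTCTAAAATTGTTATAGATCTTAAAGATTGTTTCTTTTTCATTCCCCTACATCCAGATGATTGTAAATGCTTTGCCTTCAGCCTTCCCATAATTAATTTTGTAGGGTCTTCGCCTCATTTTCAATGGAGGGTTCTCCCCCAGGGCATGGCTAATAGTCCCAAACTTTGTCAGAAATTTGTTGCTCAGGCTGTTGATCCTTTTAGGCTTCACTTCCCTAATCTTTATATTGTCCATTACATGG

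Among noncoding genes, *Neat1* (chr19:5838822-5839121, minus strand), the RNA around which paraspeckles are built, and *Gm13055* (chr4:140817527-140817826, minus strand) held the most exonic bases outside coding genes. The *Neat1* stretch is wholly exonic and the *Gm13055* stretch crosses the end of its last exon.
Neat1: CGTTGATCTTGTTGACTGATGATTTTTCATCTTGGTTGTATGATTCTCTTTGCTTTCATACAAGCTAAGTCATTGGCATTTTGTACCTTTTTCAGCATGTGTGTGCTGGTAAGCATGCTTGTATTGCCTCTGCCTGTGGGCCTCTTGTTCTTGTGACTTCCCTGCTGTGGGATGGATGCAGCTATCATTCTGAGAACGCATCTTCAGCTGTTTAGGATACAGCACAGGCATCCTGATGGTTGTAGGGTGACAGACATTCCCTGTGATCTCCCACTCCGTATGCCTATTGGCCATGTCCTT
Gm13055: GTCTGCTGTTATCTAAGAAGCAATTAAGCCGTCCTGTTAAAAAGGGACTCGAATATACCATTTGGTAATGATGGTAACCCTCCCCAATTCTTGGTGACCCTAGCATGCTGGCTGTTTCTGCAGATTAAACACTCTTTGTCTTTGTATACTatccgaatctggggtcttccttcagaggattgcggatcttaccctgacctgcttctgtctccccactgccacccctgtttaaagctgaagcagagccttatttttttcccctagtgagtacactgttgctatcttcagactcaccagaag

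Exons were a minor place for ATRX-dependent HNDs. The 382 exon HNDs made up 3.21% of the HNDs on chromosomes 1 to 19 (95% interval 2.91 to 3.54%). The list further held 3062 HNDs in introns (25.7%), 329 at gene starts (2.77%) and 8126 outside annotated genes (68.3%). Exon records cover 3.45% of the sequenced autosomal bases, and 2.85% when the windows around gene starts are left out. A region is met by an exon more often the wider it is, so the same rule was applied to every position on the same chromosome at which a window of each HND's width could lie without unknown bases. Over all these positions the rule was met by 6.31%, which comes to 750.6 HNDs, and the observed number was 0.509 times that. The ratio was 0.761 for introns, 0.801 for gene starts and 1.21 for HNDs outside genes. In all, 539 HNDs touched an exon, and 157 of these were left out because they reached into a window around a gene start.

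The shortfall over exons followed the width of the HND. Among HNDs under 200 bp, 20 lay over exons against 92.1 over all positions, a ratio of 0.217. The ratio was 0.354 from 200 bp, 0.526 from 500 bp and 0.677 from 1000 bp. Among HNDs of 2000 bp and more, 55 lay over exons against 45.7 over all positions, a ratio of 1.20. These 55 were 16.7% of the 329 HNDs of that width on chromosomes 1 to 19.

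**Figure D1:**
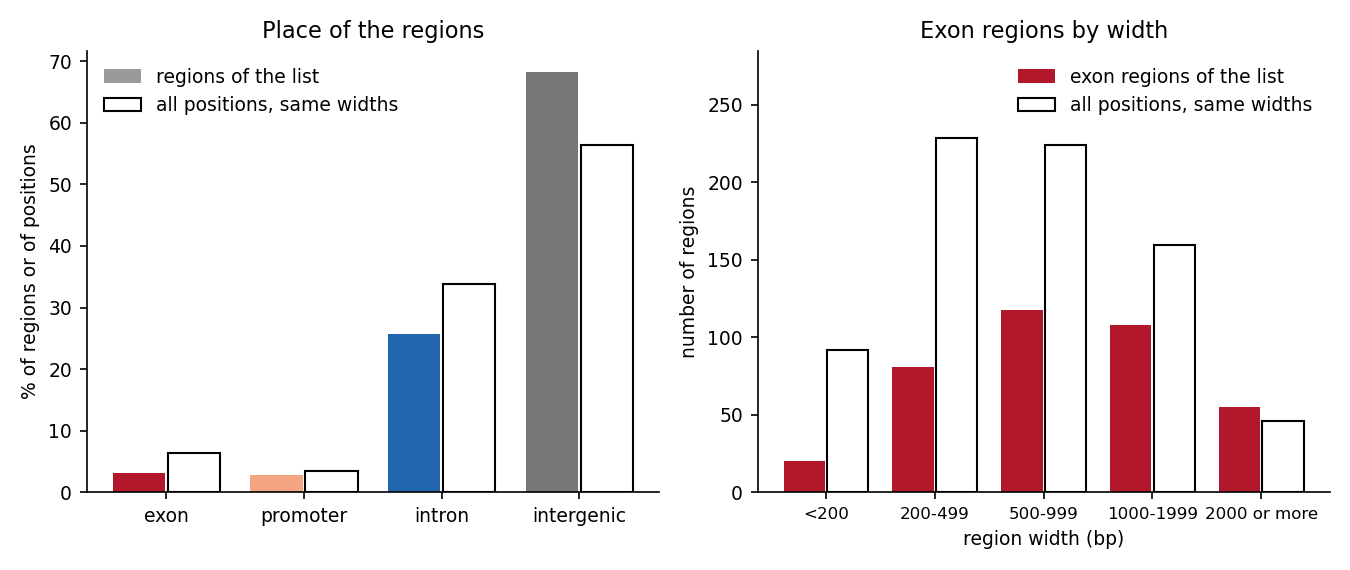
Left, percentage of ATRX-dependent HNDs over exons, at gene starts, in introns and outside genes (filled bars) beside the percentage of all positions of the same widths that meet each rule (open bars). Right, number of exon HNDs by width in bp (filled) beside the number over all positions (open): exon HNDs were fewer in the 4 narrower classes, 20 against 92.1 in the narrowest, and 55 against 45.7 in the widest.

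Exon HNDs were wide. Their median width was 857.5 bp (quartiles 483.5 and 1436 bp), against 410 bp in introns, 563 bp at gene starts and 400.5 bp outside genes. They ranged from 20 bp at the pseudogene *Gm12663* to 11121 bp at *Etv5*. Weighting every HND by the share of positions at which its width would meet the rule gives a median of 595 bp, since the rule by itself favours wide HNDs. Under 200 bp were 5.24% of exon HNDs and 20.7% of intron HNDs, and 14.4% of exon HNDs but 2.74% of intron HNDs reached 2000 bp.

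**Figure D2:**
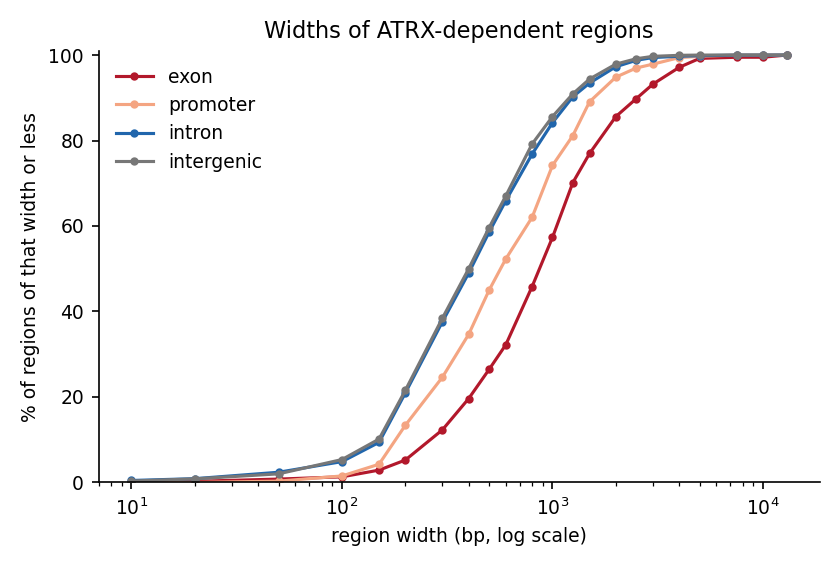
Cumulative percentage of HNDs (vertical axis) up to each width in bp (horizontal axis, log scale) over exons, at gene starts, in introns and outside genes. The exon curve lies lowest over most of the range: 57.3% of exon HNDs were at most 1000 bp wide, against 84.2% of intron HNDs.

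By the exon with the most shared bases, the 8 widest exon HNDs belonged to 7 genes. The 11121 bp HND of *Etv5*, an ETS family transcription factor, covered chr16:22398983-22410103 and held 2 coding exons with 320 bases, only 2.88% of its width. The HND of 10794 bp at chr2:162897915-162908708 covered 8 exon blocks of *Mybl2*, a transcription factor of the cell cycle, with 2155 exonic bases, 1443 of them coding. *Ubqln4*, a ubiquitin-binding shuttle protein, had 1 of 6560 bp that contained its last exon and ran on beyond the end of the gene, and *Alg11*, a mannosyltransferase of N-glycan synthesis, 1 of 4852 bp. Those of *Mtmr12*, a catalytically inactive relative of myotubularin lipid phosphatases (4793 bp), *L1td1* (4777 bp) and *Pno1*, an assembly factor of the small ribosomal subunit (4703 bp), came next, followed by a further HND of *Etv5* of 4161 bp.

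Only part of an exon HND was exonic as a rule. The 382 HNDs held 454239 bases, of which 157139 (34.6%) were exonic. The median HND held 181.5 exonic bases, 28.2% of its width, and the highest number was 3124. Wholly exonic were 82 HNDs (21.5%), at least 50% exonic were 133 (34.8%), and 28 shared under 50 bases with exons. At the lower edge of the rule, HNDs at *Pde3a*, *Ap1m2* and *Gm12284* shared 1, 4 and 5 bases, while the nearest HNDs not counted ended 4, 6 and 8 bases from an exon. At the other edge, the exon HNDs closest to a gene start lay 1010, 1086 and 1163 bases away, and the farthest exonic HNDs left out lay 976, 966 and 959 bases away. A single exon block was touched by 339 HNDs (88.7%), 2 blocks by 33 and 3 or more by 10, with at most 8.

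**Figure D3:**
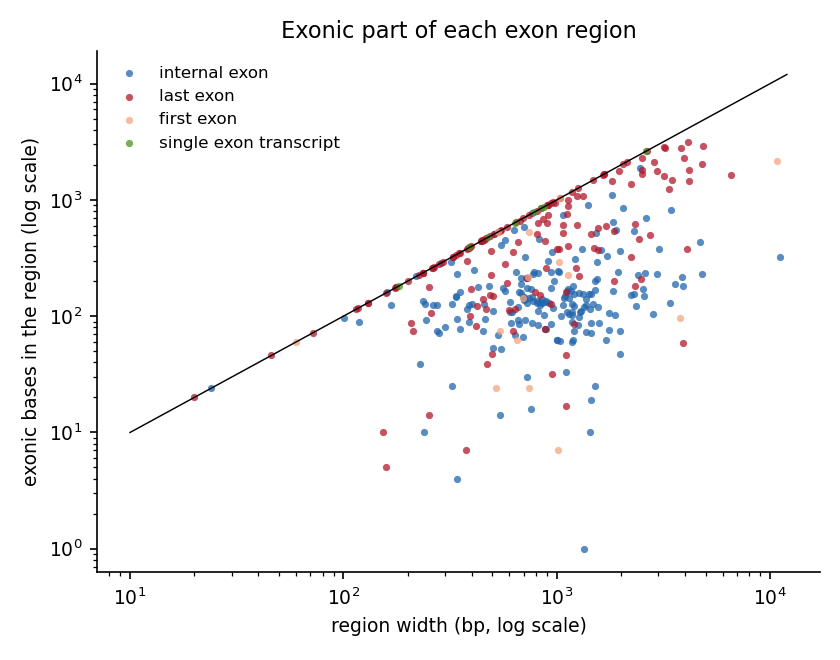
Exonic bases of each of the 382 exon HNDs (vertical axis, log scale) against its width in bp (horizontal axis, log scale), coloured by the position of the exon with the most shared bases. Points on the line are wholly exonic: 64 of the 82 points there are over last exons, while internal exon HNDs cluster well below it with a median of 134 exonic bases.

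By the exon record with the most shared bases, 199 exon HNDs lay over internal exons (52.1%, interval 47.1 to 57.1%) and 160 over last exons (41.9%, interval 37.0 to 46.9%). First exons had 15 (3.93%, interval 2.39 to 6.38%) and transcripts of a single exon 8 (2.09%, interval 1.07 to 4.08%). The order turned among the 133 HNDs that were at least 50% exonic, where 18.05% lay over internal and 72.9% over last exons. The window around gene starts removes nearly all first exons by construction, and with windows at every transcript start the share of first exons was 0.594%. Taking the longest transcript of each gene, internal exons are 85.4% of the exons that reach outside these windows but hold 41.5% of the exonic bases there, and last exons are 12.3% of the exons and hold 53.9% of the bases. Among the 333 exon HNDs that touch such a transcript of any gene, 59.5% lay over internal and 36.9% over last exons. Internal exons were thus above their share of bases but below their share of exons, and last exons the reverse.

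The classes differed in how the HND sat on the exon. Over internal exons the HND had a median width of 919 bp around an exon of median length 144 bases, and in 129 of 199 cases it contained the whole exon with intron on either side. Another 26 crossed the 5′ edge alone, 37 the 3′ edge alone, and 7 lay inside the exon. Last exons were longer, with a median of 1862 bases. There 64 of 160 HNDs lay inside the exon, 38 crossed its 5′ edge from the intron, 40 crossed its 3′ edge into the sequence beyond the transcript, and 18 contained it. The exonic part of the HND had a median of 15.1% over internal and 75.1% over last exons. All 8 HNDs over single-exon transcripts lay inside the exon.

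**Figure D4:**
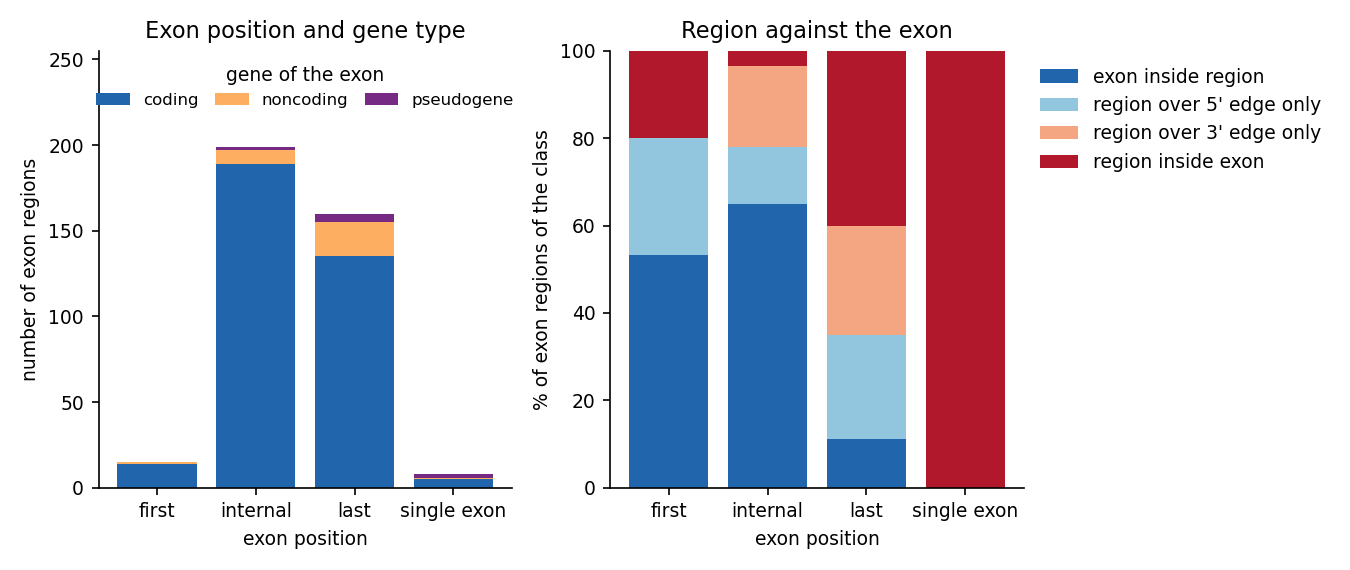
Left, number of exon HNDs by exon position, with the gene type of that exon stacked: coding genes hold 189 of 199 internal and 135 of 160 last exon HNDs. Right, percentage of each class in which the exon lies inside the HND, the HND crosses its 5′ or 3′ edge alone, or the HND lies inside the exon.

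Most exon HNDs touched coding genes. An exon of a protein-coding gene was met by 344 of 382 (90.1%, interval 86.6 to 92.7%), exons of noncoding genes alone by 29 (7.59%, interval 5.34 to 10.7%) and exons of pseudogenes alone by 9 (2.36%, interval 1.24 to 4.42%). Together they touched exons of 367 genes, 1.54% of the 23899 autosomal genes that have an exonic base outside the windows around gene starts. The share was 1.68% of protein-coding genes (328 of 19491), 0.914% of noncoding genes (30 of 3284) and 0.801% of pseudogenes (9 of 1124), whatever number of exonic bases each gene has there. Coding sequence itself was met by 267 HNDs (69.9%). It made up 51.8% of the exonic bases of all 382 exon HNDs, against 43.3% of all autosomal exonic bases outside these windows. Records of untranslated regions were met by 133 HNDs (34.8%) and covered 37.4% of the exonic bases, against 43.3% in all exons. Some bases are coding in one transcript and untranslated in another. In 53 HNDs untranslated records were met without any coding base, and 62 met neither.

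The HNDs with the most exonic bases were led by those of a few coding genes, assigned to last exons. The bases of all exons in the HND are counted. The HND of *Zfp59*, a zinc finger gene (chr7:28638674-28642806), held 3124 exonic bases in 4133 bp, 1548 of them coding and 1692 in the last-exon record that decided its class. The HND of *Alg11* held 2903 exonic bases, and that of *Peg10* (chr6:4703798-4706973) held 2848 in 3176 bp. For *Peg10* the last-exon record held 1641. *Peg10* is an imprinted gene derived from a retrotransposon and needed in the placenta, and 2751 of its 2848 bases were coding, the most of these 3 genes. *Rreb1*, a zinc finger transcription factor acting downstream of Ras, had 2795 exonic bases, *Zfp12* had 2785 and *Camk4*, a calcium/calmodulin-dependent kinase, 2643. The HND of *Camk4* lay wholly in the untranslated part of its last exon, as did that of *Tmem167*, a Golgi membrane protein, with 2048. *Neat1* (2611), *Zfp672* (2312), *Zic4*, a zinc finger factor of cerebellar development (2274), *Mybl2* (2155), *Lipt1*, a lipoyltransferase (2139), *Fam163a* (2133), *L1td1* (2035) and *Fat2* (1891) complete the 15 highest. Of these, *Neat1* was noncoding, and *Fat2* was the only internal exon.

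In the other position classes the coding genes with the most exonic bases were as follows. Among internal exons, *Fat2* was followed by *L1td1* (898 exonic bases in an HND of 1404 bp) and *Cenpj* (849 in 2039 bp). Among first exons, *Mybl2* was assigned through a short transcript with a retained intron, and *Frem2*, an extracellular matrix protein of epithelial basement membranes, had 1036 bases, all coding and inside its first exon. *Scn3a*, a voltage-gated sodium channel, had 529 bases in the first exon of a short transcript without coding sequence. Among transcripts with a single exon, *Kcnf1*, a potassium channel subunit, had 874 bases, all in its untranslated part.

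Among the gene lists counted here, that of zinc finger protein genes had the most genes met. Of 429 genes on this list with an exonic base outside the windows around gene starts, 22 were touched (5.13%, interval 3.41 to 7.64%), beside 1.54% of all genes. Both shares count genes and are not adjusted for how many exonic bases each gene has outside the windows. All 22 carry *Zfp* or *Zbtb* names, and the zinc finger genes *Rreb1* and *Zic4* named above are not counted among them. The 22 genes account for 22 exon HNDs, 5.76% of the total. Of the 22, 20 lay over the last exon, beside 41.9% of all exon HNDs and 72.9% of those at least 50% exonic. The share of exonic bases that last exons hold in this family was not counted. Fingers were searched in the translated coding sequence as the C2H2 spacing of 2 cysteines 2 to 4 residues apart and 2 histidines 3 to 5 residues apart, with 12 residues between the pairs. The HND covered the start of at least 1 finger in 16 of the genes, with 138 fingers in all. The remaining genes were 5 with 0 fingers covered (*Zfp553*, *Zfp369*, *Zfp809*, *Zfp180* and *Zfp874a*) and *Zfp783*, annotated here without a coding sequence. All fingers lay in the HND in 3 genes: 15 of 15 in *Zfp12*, 14 of 14 in *Zfp672* and 9 of 9 in *Zfp947*. *Zfp59* had 15 of 16 in the HND, *Zfp35* 16 of 17 and *Zfp869* 11 of 13. *Zfp81* had 9 of 11, *Zfp273* 9 of 15 and *Zfp933* 7 of 12. *Zfp454* also had 7 of 12, *Zfp354c* 6 of 12 and *Zfp943* 6 of 11. The part covered was smaller in *Zfp60* (8 of 19), *Zfp663* (2 of 6), *Zbtb7c* (1 of 3) and *Zfp458* (3 of 21). The sequence varied within the family: 38.1% of the 50-base words of the *Zfp947* HND occurred once in mm9, 46.6% in *Zfp783*, 55.8% in *Zfp59*, 68.6% in *Zfp273*, 98.5% in *Zfp81* and 100% in *Zfp35*, *Zfp672* and *Zfp869*.

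In each of the other lists at most 4 genes were touched, to be read beside the 1.54% of all genes. As for zinc finger genes, no share here is adjusted for the exonic bases that a gene has outside the windows. Of 53 imprinted genes, which are expressed from one parental allele, 4 were touched (7.55%, interval 2.97 to 17.9%), all over last exons: *Peg10*, *Kcnk9*, a potassium channel with 694 coding bases in the HND, *Zdbf2* with 654, and the ubiquitin ligase gene *Herc3* with 385 exonic bases, 52 of them coding. Of 35 genes of H3K9 methylation and the ATRX-DAXX pathway, *Terf1* alone was touched. It encodes a shelterin protein that binds telomere repeats, and an HND of 2356 bp contained its exon 3 of 122 bases. Of 29 genes with tandem-repeated coding sequence, *Neb*, the giant actin-binding protein of muscle, and *Sspo*, the SCO-spondin of cerebrospinal fluid, each had an HND over internal exons, with 213 and 128 coding bases. Of 25 clustered protocadherin genes *Pcdha3* was touched, by an HND of 60 bp inside its first exon. Receptors of smell were met at 1 of 480 olfactory receptor genes, *Olfr56* (0.208%, interval 0.0368 to 1.17%, below the 1.54% of all genes), and 1 of 224 vomeronasal receptor genes, the pseudogene *Vmn2r-ps49* (0.446%, interval 0.0789 to 2.49%). Only 480 of the 1243 olfactory receptor genes on these chromosomes have an exonic base outside the windows, and the number of such bases in those 480 was not allowed for. No HND met this rule at the 27 histone genes, 77 ribosomal protein genes, 21 pluripotency genes, 38 germline genes, 15 antigen receptor segments or 8 genes at the alpha-globin locus that have exonic bases outside the windows. The upper ends of the Wilson intervals at a count of 0 were 4.75% for the 77 and 9.18% for the 38 genes, both above the 1.54% of all genes, so a difference from all genes was not detectable with lists of this size. None of the small RNA genes has such a base, and neither of the 2 ribosomal protein pseudogenes that have one was touched.

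A few genes had more than 1 exon HND. Of the 367 genes, 348 had 1 and 19 had at least 2. *Etv5* and *Hydin*, a protein of the central apparatus of motile cilia, had 3 each. In *Etv5* they covered exons 8, 11 and 13 of 13 by the exon with the most shared bases, and in *Hydin* exons 4, 40 and 45 of 87. Each *Hydin* HND contained its exon whole, with widths of 276, 936 and 1081 bp. Among genes of neurons, *Gria1*, an AMPA receptor subunit, had HNDs over exons 11 and 12 of 16, and *Odz3*, a teneurin adhesion protein, over 2 last exons of different transcripts. Transport and signalling genes with 2 were *Slc7a14* and *Slc7a10*, both of the amino acid transporter family, *Itpr2*, an inositol trisphosphate receptor, and *Ly6h*. The HND counted last for *Slc7a10* shared most of its bases with *Lrp3* on the other strand. Immune genes were *Lcp2*, the SLP-76 adaptor of T cell receptor signalling, *Crtam*, an immunoglobulin-family receptor of T cells, and *Sp100*, a component of PML nuclear bodies. Others were *L1td1*, *Tmem167*, *Rad1*, a subunit of the DNA damage checkpoint clamp, *Myh8*, the perinatal myosin heavy chain, *Trim42*, *Gm5878* and *Gm11756*.

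HNDs of any place were also counted along the same genes. Another HND lay in the gene of 132 exon HNDs (34.6%), and 104 of the 367 genes had HNDs beyond those over their exons. *Gria1* had 9 in 319 kb. *Kif26b*, a kinesin, *Fam19a5*, *Slit3*, an axon guidance ligand, and *Ctnna3*, an alpha-catenin, had 8 each. Exon HNDs lay in genes of median length 42.4 kb, at a median of 24.1 kb from the gene start. Their centres were most frequent near gene ends: 98 of 382 (25.7%) fell in the last of 10 equal parts of the gene, 18 (4.71%) beyond its end, 62 (16.2%) in the part before it and 6 (1.57%) in the first part. Exonic bases of all genes outside the windows around gene starts are placed in a like order, with 39.9% in the last part, 13.4% in the one before and 2.65% in the first.

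**Figure D5:**
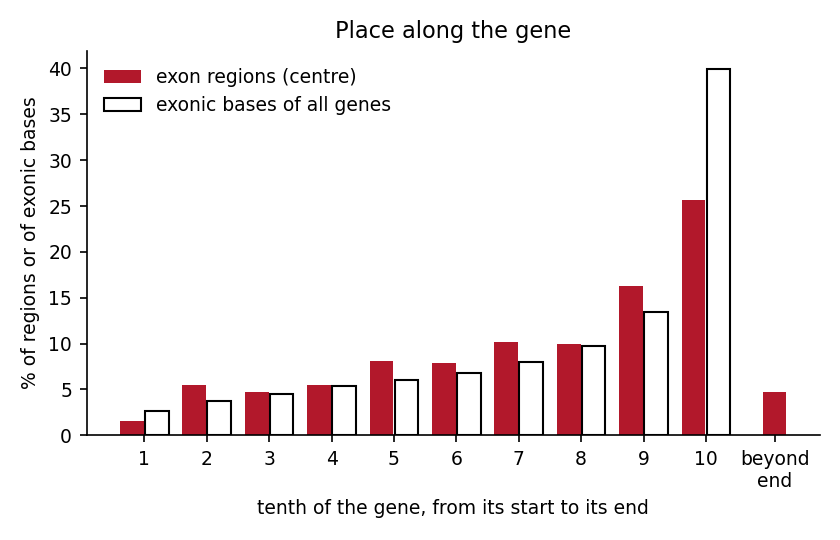
Percentage of the 382 exon HNDs with their centre in each of 10 equal parts of the gene from start to end, or beyond its end (filled bars), beside the percentage of exonic bases of all autosomal genes in that part, windows around gene starts left out (open bars). The last part holds 25.7% of exon HNDs and 39.9% of exonic bases, and 4.71% of exon HNDs lie beyond the end.

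In sequence, exon HNDs had a median G+C content of 47.3% (quartiles 44.1 and 50.6%), against 46.0% in introns, 47.1% at gene starts and 45.5% outside genes. Over the pooled bases, exonic bases of exon HNDs were 48.4% G+C, near the 47.5% of all autosomal exonic bases outside the windows, and the other bases of exon HNDs were 46.0%, above the 41.9% of the autosomes. CpG dinucleotides occurred at a median of 0.254 times the number that the C and G content gives, against 0.178 in introns and 0.226 at gene starts. By position, the median G+C content was 47.6% over internal and 47.0% over last exons.

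Exon HNDs were made mostly of single-copy sequence. Of the 50-base words that start in them, 92.2% occurred once in mm9 on both strands, against 77.4% in introns, 74.6% at gene starts and 71.7% outside genes. The same share for other windows that meet the exon rule was not counted, and the list was built from uniquely mappable reads. Words wholly in exons (91.3%) and words wholly outside exons (92.5%) were alike within these HNDs. All words occurred once in 210 exon HNDs (54.97%), against 41.1% of intron HNDs, and no word did in 9 (2.36%), against 9.73%. Among HNDs of 500 bp to under 1000 bp the share of words found once was 92.8% over exons and 79.6% in introns, and among those of 2000 bp and more 93.5% and 78.8%. Words of 24 bases with at least 100 copies occurred in 191 exon HNDs (50.0%) but made up 3.78% of their words, against 18.7% in introns. In last exons 55% of HNDs held such a word, and in internal exons 46.2%. HNDs over pseudogenes alone had the lowest share of 50-base words found once, 64.0%, against 92.4% for those over coding genes and 95.1% for those over noncoding genes. In *Vmn2r-ps49* no word occurred once. *Rad1* had 2 HNDs inside the untranslated part of its last exon with 65.3% and 35.4%.

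Telomere and G-quadruplex motifs, both known as places of ATRX action, were counted on both strands. The telomere hexamer TTAGGG, or CCCTAA on the other strand, was found in 118 exon HNDs (30.9%, interval 26.5 to 35.7%), and in 32.5% of all windows with those widths and chromosomes. There were 166 hexamers in all, with 1 in 82 HNDs, 2 in 29 and 3 or more in 7, and the most, 6, in the 10794 bp HND of *Mybl2*. A G-quadruplex pattern of 4 runs of at least 3 G with loops of 1 to 7 bases was found in 54 (14.1%, interval 11 to 17.99%), and in 17.2% of all such windows. Intron HNDs, which are narrower, held TTAGGG in 20.5% and the G-quadruplex pattern in 6.53%. A match is a description of the letters and does not show binding.

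Exon HNDs lay a median of 46.4 kb from the nearest other HND of the list, against 35.3 kb at gene starts, 60.8 kb in introns and 49.3 kb outside genes. Within 10 kb of another lay 90 of 382 (23.6%), against 26.8% at gene starts, 18.4% in introns and 20.4% outside genes. By chromosome, exon HNDs numbered from 8 on chromosomes 16 and 19 to 45 on chromosome 11. As a share of the HNDs on the chromosome they ranged from 1.45% on chromosome 10 (9 of 622, interval 0.763 to 2.73%) to 5.31% on chromosome 11 (45 of 847, interval 3.99 to 7.04%). Chromosome 11 also had the highest share over all positions, 10.5%, so its ratio of 0.508 was close to that of the autosomes together. The ratio was lowest on chromosome 10 (0.264) and highest on chromosome 6 (0.731), and it was below 1 on each of the 19 chromosomes.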

How the data were processed

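H3K9me3, H3, IgG and input libraries of WT and *Atrx* KO ESCs were grouped by their labels. According to the methods, the authors mapped 50-base single-end reads to mm9 with Bowtie2, allowing up to 2 mismatches and keeping uniquely mappable reads. Broad peaks were called with MACS2 against the common input, and WT regions absent in KO were kept with BEDTools. How replicates were joined and which overlap counted as absent is not given in the sources used here. The result deposited by the authors has 3 columns that give positions in bp on mm9, with no other unit and 0 columns for single libraries.

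Starts were counted from 1. Gene starts are the 5′ ends of gene records in GENCODE M1, exon order was taken from coordinates in the direction of the transcript, and ties between records went to the longer transcript. Shares over all positions are exact sums. Word copies were counted in the whole mm9 sequence. The routines were tested on simulated data. The members and lists were chosen with earlier results of these data known.

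Named are the 15 exon HNDs with the most exonic bases, the 8 widest, genes with at least 2, the 3 coding genes with the most exonic bases in each position class, at most 8 touched genes of each list, and the 3 genes with the most HNDs (ties included). A result that met this rule is not reported here. Of genes with a Gm number, those chosen by position class alone were counted but not named. Genes at the edges of the rule or of the widths, and the zinc finger genes beyond the 8 of that list, were chosen after their values were seen. Printed are 2 HNDs outside chromosome 18 for each of 4 kinds (internal, last, pseudogene, noncoding), by coding or exonic bases. Alternatives were other overlaps, windows, exon records, widths, joining, transcripts and word lengths. Chromosomes X and Y were left out by the rule. Python 3.11.15, numpy 2.4.6, pandas 2.3.3, scipy 1.17.1, numba 0.67.0 and matplotlib 3.10.9 were used.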

Additional observations from a re-analysis of the deposited data

Results flagged for a closer look

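Chromosomes X and Y lie outside the rule, but the same overlap was met there by HNDs that enter none of the values above. On chromosome X it was met by 4 of 1040 HNDs (0.385%), against 3.21% on the autosomes. These lay over the last exon of *Zfp182*, an exon of the pseudogene *Gm14752*, and the noncoding genes *Astx4d* and *G530011O06Rik*. On chromosome Y it was met by 8 of 174 HNDs (4.60%). They lay over *Ube1y1* (3 HNDs), *Zfy1*, *Zfy2*, *Kdm5d*, *Eif2s3y* and *Ddx3y*, and were as wide as 10802 bp over *Ddx3y* and 9833 bp over *Ube1y1*. The share of all positions that meet the rule was not counted for X and Y. These percentages are therefore not adjusted for the exons or the HND widths of each chromosome. No cause was tested.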

How the results depend on the processing

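No paired analysis was possible because replicates have no values of their own in the list, and leaving out replicates or ranking by a score gave no value for that reason. Of 75 values of 10 results under 9 alternatives, 55 stayed within the 95% interval of the reported value, or, for the count of HNDs, within 1.5 times. Requiring at least 50% exonic bases left 133 HNDs and moved most results: coding genes 86.5%, last exons 72.9%, internal exons 18.05%, single-exon transcripts 6.015%, median width 575 bp, G+C 48.4% and words found once 92.4%. The cause was not tested. Windows of 2 kb lowered pseudogenes to 1.13%, with words at 92.4%. Windows at transcript starts left first exons at 0.594% and words at 91.6%. With exons of coding genes only, coding genes were 100% and pseudogenes 0% by construction, and words 92.4%. By the longest transcript of the gene with the most shared bases, over the 332 HNDs that touch it, internal exons were 59.3% and first exons 1.205%. Words found once were 92.6% with at least 50 shared bases, 92.1% after joining HNDs within 1 kb and 89.3% with words of 36 bases; overlapping words make their interval too narrow. The list gives no depth for a region, and the part of depth in these values was not tested.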
